A study of Mus musculus with 4 samples.

Results

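The genes described here are 8 milk protein genes: Lalba, Csn1s1, Csn1s2a, Csn2, Csn3, Wap, Wfdc18 and Mfge8. They were taken by name from the 32285 genes of the matrices, with no threshold on their values but with earlier results of these data known, and all 8 were present. Their transcripts were counted in single cells, captured in droplets, of mouse mammary organoids, which are epithelial cells of virgin females' glands grown in Matrigel. There were 4 libraries, 1 for each combination of genotype and treatment: wild type or Brca2mut/WT, a germline truncation of a single Brca2 allele, each as control (Untreated in the labels) or with HU, hydroxyurea, a drug that starves replicating cells of nucleotides. The labels call each library 2 replicates, and its cells carry 4 antibody tags. No key tells which tag is which mouse, replicate, age or passage, and whether a library holds organoids of passage 0, passage 4 or both is not given, so 1 library stood for each condition. The strain of the mice is not given in the sources used here.

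Milk proteins are made by the alveolar cells that arise from HR- luminal cells, the luminal cells without hormone receptors, during pregnancy and lactation. The caseins carry calcium and phosphate in micelles, Lalba turns a galactosyltransferase into lactose synthase, and Mfge8 coats the fat globules of milk and helps phagocytes take up dying cells. Prolactin, acting through its receptor, Jak2 and Stat5, together with glucocorticoids and Elf5, is known to drive these genes, and some of them are also transcribed at a low level in the virgin gland. HR+ luminal cells sense hormones, and basal cells are contractile and squeeze milk out.

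In mm10, 4 of the genes lie together on chromosome 5. Csn1s1 (ENSMUSG00000070702), encoding alpha-S1 casein, spans chr5:87666208-87682578 on the plus strand. Csn2 (ENSMUSG00000063157), encoding beta-casein, lies at chr5:87692624-87699630 on the minus strand, its nearer end 26.4 kb from the start of Csn1s1, and Csn1s2a (ENSMUSG00000061937), an alpha-S2-like casein, lies at chr5:87774567-87788797. Csn3 (ENSMUSG00000001622), encoding kappa-casein, which caps the micelles, lies at chr5:87925579-87932665, 259 kb from the start of Csn1s1. Wap (ENSMUSG00000000381), the whey acidic protein, is at chr11:6635482-6638637 on the minus strand, and Wfdc18 (ENSMUSG00000000983), a small secreted protein with the same type of domain, is at chr11:83709015-83711348. Lalba (ENSMUSG00000022991) is at chr15:98480400-98482721 and Mfge8 (ENSMUSG00000030605) at chr7:79133768-79149060, both on the minus strand. All 8 are annotated as protein-coding, and the values below count captured molecules per gene, with its transcripts not told apart.

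RefSeq gives start sites on GRCm38.p6 for 7 of the 8 genes, and the 250 bases before each start were searched for TTCNNNGAA, the palindrome that STAT factors are known to bind. It reads the same on both strands, so a single search covers both. Among the genes with an entry, 2 held it, Csn1s1 from 100 and Csn2 from 93 bases before the RefSeq start, while it was found in 2306 of 32851 such stretches of the genome, 7.02%. The stretches are shown for Csn1s1 and Lalba, which among the genes above 20 CPM differed most between libraries, and for Csn2 as the 30 bases around its match, because it also holds the motif yet stayed below 2 CPM. Capitals mark the match. The Csn1s1 stretch is chr5:87665958-87666207 on the plus strand, the Csn2 window chr5:87699499-87699528 and the Lalba stretch chr15:98482722-98482933, both on the minus strand and written 5′ to 3′. Of the Lalba stretch searched, the 38 bases nearest the RefSeq start are not shown, since the GENCODE gene covers them. RefSeq starts Csn2 at 87699425, 205 bases inside the GENCODE gene, so its window lies upstream of the RefSeq start and in an untranslated exon of 1 of 11 GENCODE transcripts.
Csn1s1: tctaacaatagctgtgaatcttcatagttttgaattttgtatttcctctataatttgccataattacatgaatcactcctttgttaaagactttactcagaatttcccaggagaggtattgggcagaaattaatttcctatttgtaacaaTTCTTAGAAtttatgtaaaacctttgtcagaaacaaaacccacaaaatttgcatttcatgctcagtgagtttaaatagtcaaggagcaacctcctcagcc
Csn2: tcacgtagacTTCTTGGAAttgaagggact
Lalba: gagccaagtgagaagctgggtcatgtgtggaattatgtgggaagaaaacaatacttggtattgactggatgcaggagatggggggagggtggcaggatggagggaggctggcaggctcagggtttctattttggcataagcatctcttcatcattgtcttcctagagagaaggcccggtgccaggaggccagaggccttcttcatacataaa

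The matrices held between 243430259 and 302135155 gene UMIs (unique molecular identifiers, each counting 1 captured transcript) per library. A filter of 1000 to 6000 genes and under 5% mitochondrial UMIs kept 17360 of 33268 cells, with 4.18e+08 of 1.0625e+09 gene UMIs. Cells were assigned by their own counts, as basal from 500 CPM (UMIs of the gene per 1000000 UMIs) of Krt14, as HR+ luminal from 300 CPM of Areg and as HR- luminal below 300 CPM of both, which gave 2217, 569 and 14008 cells, with 566 cells left in none of these classes. The cuts pass through a range, since 429 basal cells had under 1000 CPM of Krt14, 116 HR+ luminal cells had under 600 CPM of Areg and 1531 HR- luminal cells had at least 150 CPM of either gene. Of the markers not used for the cut, Kit was at 76.0 to 104 CPM in the HR- luminal class against at most 6.16 in the basal class and 7.35 in the HR+ class, and Elf5 was at 95.4 to 125 against at most 14.9. Cd14 was at 89.6 to 166 CPM there and at most 70.1 elsewhere. Krt5, at 1822 to 2861 CPM, marked the basal class, and Prlr (927 to 1310 CPM) and Foxa1 (111 to 132 CPM) marked the HR+ class. The other 3 of the 6 HR- luminal markers went against the name and were higher in the HR+ class of every library: Aldh1a3 with 18.0 to 31.5 CPM in the HR- and 26.7 to 78.8 CPM in the HR+ class, and the luminal keratin genes Krt8 with 987 to 1126 and 2995 to 3852 CPM and Krt18 with 1949.7 to 2152 and 2909.8 to 3883 CPM. The 6 markers summed to 3319 to 3562 CPM in the HR- and 6035 to 7829 CPM in the HR+ class. The stromal gene Dcn stood at 702 to 1661 CPM in the HR+ class and at no more than 9.09 CPM elsewhere. The 5 markers of keratinizing cells summed to 905 to 3308 CPM in the HR+ class, 97.7 to 763 CPM in the basal class and 27.3 to 37.8 CPM in the HR- class, nearly all of it from Sprr1a in the HR+ class, a gene of the cornified envelope. The part of either signal in the values of the HR+ class was not tested. Between 16 and 30 cell barcodes were shared by any pair of libraries.

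The HR- luminal cells carried most of the milk protein transcripts in every library. The 8 genes together took 3.13% of their UMIs in the wild-type control and 2.78% in the wild-type HU library, and 2.59% and 2.76% in the Brca2mut/WT control and HU libraries. In basal cells they took 0.280 to 0.402%, and in HR+ luminal cells 0.145 to 0.289%, so the ranges of the 3 classes did not overlap between HR- luminal cells and the others. Of the 8 genes, 5 were measured well in these cells (Lalba, Csn1s1, Csn3, Wfdc18 and Mfge8, each above 300 CPM), whereas Csn1s2a, Csn2 and Wap stayed below 4 CPM.

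Values are given below in the order wild-type control, wild-type HU, Brca2mut/WT control, Brca2mut/WT HU, as the CPM of all cells of a class summed. Lalba, the lactose synthase subunit, stood in HR- luminal cells at 348, 570.5, 331 and 641 CPM, with 95% exact Poisson intervals, which cover counting error only, of 345 to 352, 565 to 576, 328 to 335 and 635 to 647. In basal cells it was at 17.1, 29.5, 8.20 and 19.5 CPM, and in HR+ luminal cells at 17.1, 8.93, 5.94 and 9.52 CPM. The lowest HR- luminal library was thus above the highest library of either other class. A single basal cell held 269 of the 565 basal Lalba UMIs of the wild-type HU library (47.6%), and another held 86 of 139 (61.9%) in the Brca2mut/WT HU library.

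Csn1s1 was at 1769.8, 1532, 919.9 and 899 CPM in HR- luminal cells, against 134, 95.7, 111 and 57.0 CPM in basal cells and 106, 44.6, 24.1 and 24.2 CPM in HR+ luminal cells. Csn3 was at 21471, 18871.5, 18296.5 and 19499.7 CPM in HR- luminal cells, with 1205 to 1790.3 CPM in basal and 677 to 1524 CPM in HR+ luminal cells. Both caseins were higher in every HR- luminal library than in any library of the other classes. Mfge8 was at 5025, 4494, 4016 and 4294 CPM in HR- luminal cells, with 596 to 843 CPM in basal and 534 to 912 CPM in HR+ luminal cells. Wfdc18 differed least between luminal and basal cells, at 2706, 2278, 2343 and 2258 CPM in HR- luminal and 1234, 1124, 1125 and 697 CPM in basal cells. In HR+ luminal cells Wfdc18 was at 183 to 413 CPM, below the basal range.

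**Figure D1:**
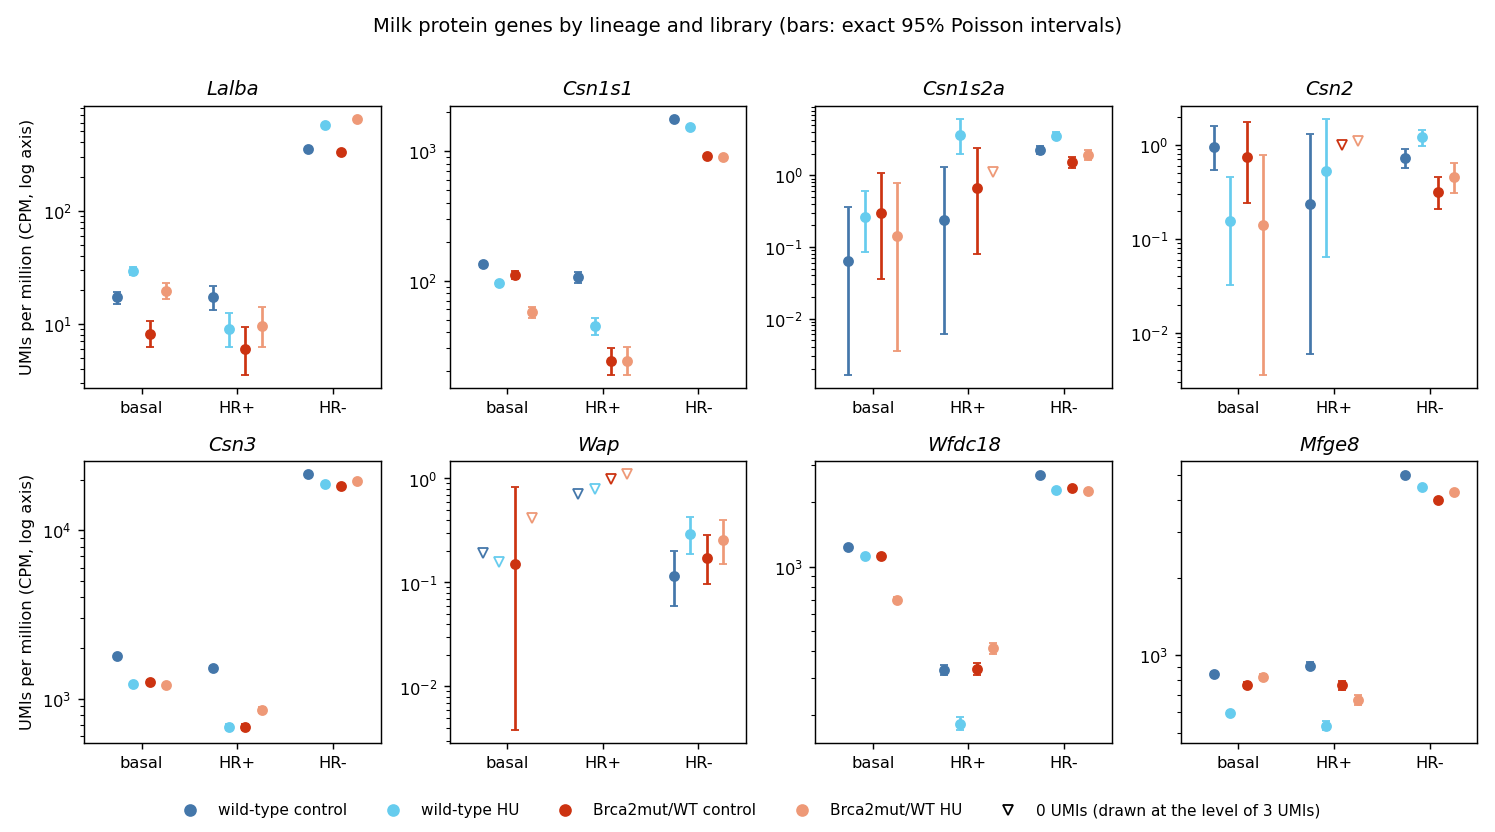
Level of each of the 8 genes, in CPM on a log axis, in basal, HR+ luminal and HR- luminal cells of the 4 libraries, 1 point per library and class with its exact Poisson 95% interval, and open triangles at the level of 3 UMIs where none was counted. Lalba, Csn1s1, Csn3, Wfdc18 and Mfge8 are highest in HR- luminal cells of every library, while Csn1s2a, Csn2 and Wap stay below 4 CPM in every class.

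Csn1s2a was at 2.26, 3.60, 1.51 and 1.93 CPM in HR- luminal cells (235, 309, 131 and 137 UMIs) and at no more than 0.298 CPM in basal cells, 1 to 5 UMIs per library. In HR+ luminal cells it was at 3.68 CPM in wild-type HU, where 12 of its 14 UMIs came from a single cell, and at 0.237, 0.660 and 0 CPM in the others. Csn2, one of the main caseins of mature milk, was at 0.722, 1.20, 0.312 and 0.451 CPM in HR- luminal cells. In basal cells Csn2 was at 0.140 to 0.962 CPM, overlapping these levels, and 11 of the 15 UMIs behind the highest basal level came from 1 cell. Wap was at 0.116, 0.291, 0.173 and 0.253 CPM in HR- luminal cells, from 12, 25, 15 and 18 UMIs, with 1 UMI in basal cells of Brca2mut/WT control and none in the other basal sums or in any HR+ luminal sum. A count of 0, taken as up to 3 UMIs, allows 0.157 CPM in basal cells of wild-type HU, below the HR- luminal level there. In basal cells of wild-type control and Brca2mut/WT HU it allows 0.192 and 0.421 CPM, and in HR+ luminal cells 0.711 to 1.10 CPM, so a difference in Wap was not detectable there at this depth.

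The lineage comparison was tested with edgeR's quasi-likelihood test on UMIs summed per library and class, with the library as a block and Benjamini-Hochberg adjustment over 13251 genes. Its p-values measure how far the difference between classes varies across these 4 libraries, which differ in genotype and treatment. Of the 8 genes, 6 passed the filter on low counts, and all 6 were higher in HR- luminal than in basal cells at adjusted p under 0.05 and at least 2-fold, where 12.04% of all genes were. Csn1s2a, with 1 to 5 UMIs in each basal sum, passed the filter through its HR- luminal sums. Its direction was thus favoured in advance, and it adds no support to the count of 6. Csn2 and Wap were not tested. Lalba was higher by 4.81 on the log2 scale (SE 0.229, adjusted p = 1.41e-08), Csn3 by 4.00 (SE 0.138, adjusted p = 1.98e-09) and Csn1s1 by 3.82 (SE 0.234, adjusted p = 9.25e-08). Csn1s2a was higher by 4.03 (SE 0.537, adjusted p = 4.85e-05), a call that was lost when cells with more genes and more mitochondrial UMIs were kept (adjusted p = 0.0822). Mfge8 was higher by 2.71 (SE 0.110, adjusted p = 4.61e-09) and Wfdc18 by 1.33 (SE 0.205, adjusted p = 0.000148). Over all alternative settings the lowest differences were 3.32 for Lalba, 2.69 for Csn3, 2.51 for Csn1s1, 1.95 for Mfge8 and 1.18 for Wfdc18. The median over the 6 genes in the main setting, Csn1s2a included, was 3.91, and over all genes tested it was 0.01.

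Against HR+ luminal cells the same 6 genes were called higher, where 15.9% of all genes were. The differences were 5.64 for Lalba (SE 0.268), 4.99 for Csn1s1 (SE 0.257), 4.65 for Csn3 (SE 0.143), 3.14 for Wfdc18 (SE 0.221) and 2.84 for Mfge8 (SE 0.112), with adjusted p-values from 7.75e-10 to 3.01e-07. Csn1s2a, whose direction the filter favoured here too, was at 1.28 (SE 0.501, adjusted p = 0.0416 by edgeR's quasi-likelihood test), just past the threshold. Its call was lost in 9 of the alternatives, with adjusted p-values from 0.0509 to 0.595, among them those without the wild-type control library (0.179), without Brca2mut/WT control (0.0857) and without Brca2mut/WT HU (0.122), and its direction turned when the cell filter was loosened, to -0.89. Without the wild-type HU library, whose HR+ luminal UMIs of Csn1s2a came mostly from the 1 cell named above, it was 2.84. The other differences also depended on the settings, beyond their SEs. Over all alternatives the lowest were 2.60 for Lalba, 2.39 for Csn1s1, 1.70 for Csn3, 1.38 for Wfdc18 and 1.53 for Mfge8. The median over the 6 genes in the main setting, Csn1s2a included, was 3.89, beside 0.05 over all genes.

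**Figure D2:**
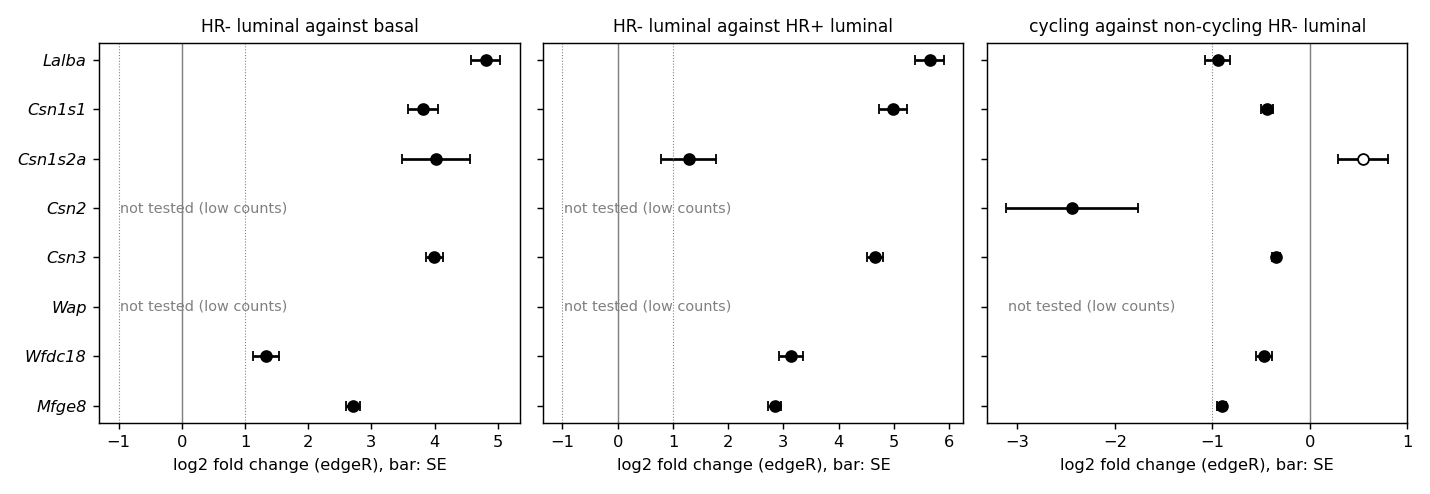
Log2 fold change with its standard error from edgeR for each gene in 3 comparisons: HR- luminal against basal, HR- luminal against HR+ luminal, and cycling against non-cycling HR- luminal cells. Filled points passed an adjusted p of 0.05, dotted lines mark 2-fold, and genes that did not pass the filter on low counts are marked as not tested. The 6 genes tested between lineages lie to the right of 2-fold in both comparisons, and the points for cycling cells lie between -2.43 and 0.55.

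The lineage difference also held inside the tag pools, the cells of a library that carry the same single tag. In 14 pools with at least 20 basal cells, HR- luminal cells were higher in 14 of 14 for Lalba (2.97- to 128-fold), Csn1s1 (2.94- to 22.9-fold), Csn3 (8.52- to 19.3-fold), Mfge8 (4.46- to 8.01-fold) and Wfdc18 (1.54- to 4.18-fold). In 6 pools with at least 20 HR+ luminal cells, these 5 genes were higher in 6 of 6. Barcodes with under 1000 genes are given for reference, and their content of free RNA was not measured. They had Lalba at 17.5 to 29.7% of the HR- luminal level, Csn1s1 at 34.7 to 37.9% and Csn3 at 36.5 to 52.0%. Mfge8 was at 38.5 to 53.4% and Wfdc18 at 52.9 to 86.7%. Basal cells lay below this, at 2.47 to 5.17% for Lalba, 6.24 to 12.1% for Csn1s1, 6.18 to 8.34% for Csn3, 13.3 to 19.1% for Mfge8 and 30.9 to 49.3% for Wfdc18. How much of the basal level was free RNA was not tested.

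The genes known to control milk genes did not follow them as a block. Of 15 regulators tested, 8 were higher and 1 lower in HR- luminal than in basal cells, and 7 were higher and 5 lower than in HR+ luminal cells. Of all genes tested, 12.04% were called higher and 12.3% lower than in basal cells, and 15.9% higher and 12.8% lower than in HR+ luminal cells. Elf5, the alveolar transcription factor, was higher by 3.27 (SE 0.124) and 3.70 (SE 0.151), and Socs2, which dampens cytokine signalling, by 2.48 (SE 0.122) and 2.49 (SE 0.134), all with adjusted p-values under 0.05. Socs3, another inhibitor of that signalling, was lower in both comparisons, by -2.13 (SE 0.162) and -1.75 (SE 0.180). Prlr, the prolactin receptor and a marker of the HR+ class, was higher by 2.45 than in basal cells and differed by -3.46 from HR+ luminal cells. Stat5a and Stat5b, the factors that prolactin activates, were chosen for mention after their values were seen and went different ways. Stat5a was higher by 1.32 than in basal cells and differed by -1.16 from HR+ luminal cells, and Stat5b was higher by 1.79 than in basal cells and differed by 0.36 (adjusted p = 0.00798 by edgeR's quasi-likelihood test, short of 2-fold) from HR+ luminal cells.

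Among 8 genes of lactose synthesis, B4galt1, the galactosyltransferase that Lalba modifies, was the only one called higher in both comparisons, by 1.41 (SE 0.0721) against basal and 1.27 (SE 0.0772) against HR+ luminal cells, and 1 gene was lower than in HR+ luminal cells. Over all genes tested, 12.04% were called higher than in basal and 15.9% higher than in HR+ luminal cells, with 12.3% and 12.8% lower. The lactose synthesis counts are near these shares and are no result about that list. Of 12 other milk and secreted proteins tested, 7 were higher and 2 lower than in basal cells, and 9 were higher and 3 lower than in HR+ luminal cells. Csn1s2b, a further alpha-S2-like casein gene, was higher by 3.98 and 3.28, and Trf, encoding the iron carrier transferrin, by 3.61 and 3.99. Csn1s2b, at 2.87 to 3.44 CPM in HR- luminal cells, passed the filter on low counts through its HR- luminal sums. Its direction was favoured in advance, and it adds no support to these counts. Whether other genes of this list passed in the same way was not tested. With that limit, more of these secreted proteins were called higher than lower in HR- luminal cells. Slpi, a protease inhibitor (-2.77), and Pthlh, a hormone-like peptide (-1.21), were lower than in basal cells. Of 5 milk fat globule genes tested, Plin2, which coats lipid droplets, was higher by 2.08 and 2.40 and was the only one called against basal cells, with 2 called against HR+ luminal cells. Of 5 WFDC relatives of Wap and Wfdc18, 1 was higher than in basal cells (Wfdc3, by 1.36) and 4 were lower, led by Wfdc21 (-5.83) and Wfdc12 (-5.03), beside 12.3% of all genes lower. Wfdc21 and Wfdc12 did not pass the filter on low counts within HR- luminal cells alone, so they entered this test through the other classes. A lower call was thus favoured in advance for both, and they add no support to the count of 4. Against HR+ luminal cells 1 of the 5 was higher (Wfdc3, by 3.15) and 2 were lower, beside 12.8% of all genes lower. Wfdc18 and Wfdc3 were thus higher in HR- luminal than in basal cells. The other 4 relatives were lower, among them Wfdc12 and Wfdc21, whose direction was favoured in advance.

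Between Csn1s1 and Csn3 the casein region holds genes at very different levels in the same cells. Csn1s2b, 142 kb from the start of Csn1s1, was at 2.87 to 3.44 CPM in HR- luminal cells, and Odam, at 219 kb, was at 0.395 to 0.521 CPM. Of the 7 neighbours looked up, some of them outside this interval, 3 passed the filter between lineages. All 3 were higher in HR- luminal cells in both comparisons, Smr2 by 4.59 and 4.95, Smr3a by 4.08 and 4.12, and Csn1s2b as above. Of all genes tested, 12.04% were called higher than in basal and 15.9% higher than in HR+ luminal cells. A gene that passes the filter on low counts through its HR- luminal sums is favoured to be called higher there. This holds for Csn1s2b and was not tested for Smr2 and Smr3a, so the count of 3 is not read as a result. Smr2 and Smr3a lie outside the interval and encode small secreted proteins of the salivary type.

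Within HR- luminal cells, 1005 were called cycling, with at least 300 CPM over Mki67, Top2a, Birc5, Ccnb2 and Cdk1. Milk protein RNA was lower in these cells for most members, by less than the lineage differences. Lalba was at 218, 441, 209 and 213 CPM in cycling and 357, 579, 341 and 667 CPM in non-cycling cells, lower in cycling cells of 4 of 4 libraries. Mfge8 was at 3299.96, 2437, 2538 and 2283 CPM in cycling and 5141, 4631, 4130.3 and 4416 CPM in non-cycling cells, and here the ranges did not overlap. By edgeR's quasi-likelihood test over 14164 genes, Lalba differed by -0.94 (SE 0.131, adjusted p = 2.21e-05) and Mfge8 by -0.90 (SE 0.0460, adjusted p = 3.69e-10), both short of 2-fold. Wfdc18 (-0.46), Csn1s1 (-0.44) and Csn3 (-0.34) also had adjusted p-values under 0.05. Thus 6 of 7 members tested were lower at that threshold with no requirement on the fold, where 26.9% of all genes were, and 1 of 7 was lower at 2-fold or more, where 5.13% were.

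That gene was Csn2, which differed by -2.43 (SE 0.677, adjusted p = 0.00703) on very few molecules: 1, 0, 1 and 1 UMIs in cycling cells against 74, 103, 26 and 31 in the others. Csn2 passed the filter on low counts through its non-cycling sums, so a lower level in cycling cells was favoured in advance. Its part in the counts of 6 and 1 above is therefore no support. Without the wild-type HU library the difference for Csn2 was -1.62 (adjusted p = 0.0794), and without the library block its adjusted p was 0.0545, so the call also rests on those choices. Csn1s2a differed by 0.55 (SE 0.260, adjusted p = 0.0914). It was at 4.56 and 7.11 CPM in cycling cells of the wild-type libraries against 2.11 and 3.37 in the others, and at 1.13 and 1.48 CPM against 1.54 and 1.96 in the Brca2mut/WT libraries, from 6 to 38 UMIs in cycling cells. No Wap comparison was possible, with 0 to 3 UMIs in cycling cells.

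HU treatment and genotype were compared in HR- luminal cells with 1 library per condition, so no test was made and each difference compares libraries. A difference of 1.5-fold on log2(CPM + 1) was taken as large, for genes with at least 20 CPM in 1 of the libraries compared, which left 5 of the 8 genes. The 4 comparisons share libraries in pairs and are not independent. Lalba was the member past 1.5-fold with HU in both genotypes. It was at 348 CPM in control and 570.5 CPM in HU in wild type, a difference of 0.71 (counting interval 0.69 to 0.73), 1.64-fold, where 0.483% of 5381 genes were past 1.5-fold upwards and 0.558% downwards. In Brca2mut/WT it was at 331 and 641 CPM, 0.95 (0.93 to 0.97) or 1.93-fold, where 0.329% of 5469 genes were, with 0.658% lower by as much. Between genotypes Lalba differed by -0.07 in control and by 0.17 in HU libraries.

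Csn1s1 was the member past 1.5-fold between genotypes. It was at 1769.8 CPM in wild-type and 919.9 CPM in Brca2mut/WT control, a difference of -0.94 (-0.96 to -0.93), 1.92-fold, where 0.259% of 5411 genes were lower by as much and 0.554% higher. With HU it was at 1532 and 899 CPM, a difference of -0.77 (-0.78 to -0.75), 1.70-fold, where 0.407% of 5402 genes were and 0.463% were higher. With HU against control it differed by -0.21 in wild type and -0.03 in Brca2mut/WT. In these sums Lalba was thus past 1.5-fold by treatment and Csn1s1 by genotype, but the sums weight tag pools of unequal size. As unweighted means of the pools Lalba with HU in Brca2mut/WT was at 0.45, and with 1 pool left out Lalba with HU in wild type was at 0.44 and Csn1s1 between genotypes with HU at -0.53 or -0.55, all short of 1.5-fold.

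The other 3 well-measured genes stayed within 1.5-fold in all 4 comparisons. Csn3 differed by -0.19 and 0.09 with HU in wild type and Brca2mut/WT, and by -0.23 and 0.05 between genotypes in control and HU. Mfge8 gave -0.16, 0.10, -0.32 and -0.07 in the same order, and Wfdc18 gave -0.25, -0.05, -0.21 and -0.01. Counting intervals excluded 0 for all of these, but they do not cover differences between cultures. Csn1s2a, Csn2 and Wap were under 20 CPM and got no call. Among the regulators and the lactose synthesis genes, 13 and 6 reached 20 CPM, and 0 of them were past 1.5-fold in any of the 4 comparisons, and 0 of 4 milk fat globule genes were either. Of all genes at that level, only 0.259 to 0.658% were past it in each direction of a comparison. Counts of 0 in lists this short are thus no result about these lists. Of 8 other milk and secreted proteins from 20 CPM, 5 were past 1.5-fold in at least 1 comparison, and they are named here because of their values. The share of all genes past it in at least 1 of the 4 comparisons was not counted. Spp1, encoding osteopontin, was at 889 CPM in control and 1847 CPM in HU in wild type, and the iron-binding Ltf at 40.4 and 75.8 CPM, differences of 1.05 and 0.89. Pigr, the receptor that carries antibodies into milk, was at 59.7 and 12.5 CPM in the same libraries (-2.17), and at 40.9 and 26.3 CPM in Brca2mut/WT (-0.62). Spp1, Ltf and Pigr thus differed with HU in wild type, in both directions. Between genotypes with HU the differences were -1.67 for Spp1, -1.38 for Ltf, 1.02 for Pigr, -1.03 for Slpi and -0.67 for Clu, and in control it was -0.61 for Slpi. Slpi was also the 1 of 3 WFDC relatives past the line. Smr2, the 1 casein neighbour at that level, differed by 0.84 with HU in wild type and by -0.99 between genotypes with HU.

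**Figure D3:**
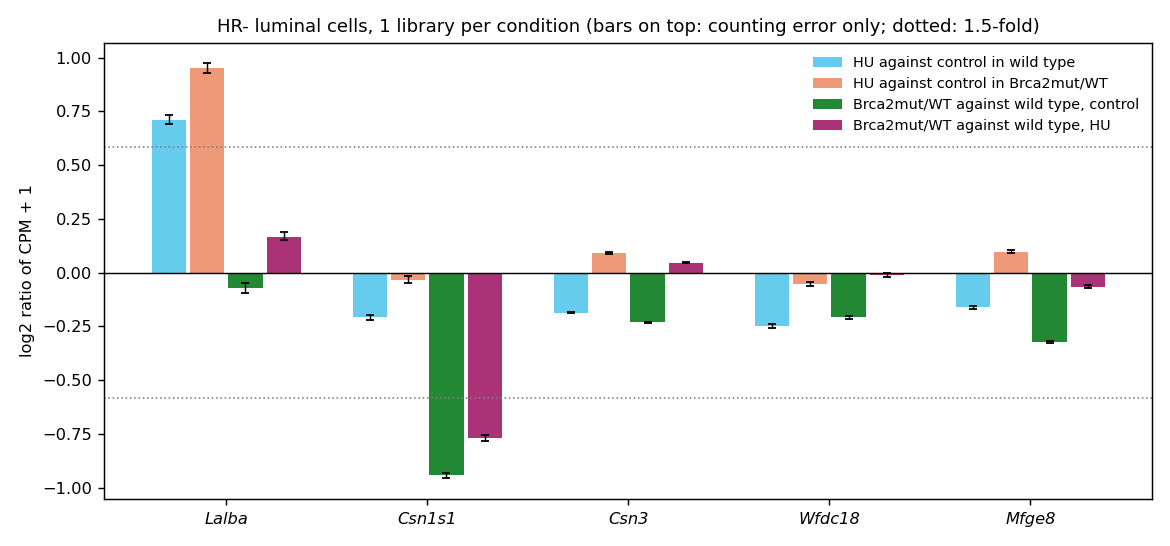
Log2 ratio of HR- luminal CPM + 1 for the 5 members above 20 CPM in the 4 comparisons of 1 library with 1 library, bars from 0 with counting intervals and dotted lines at 1.5-fold. Lalba passes the line upwards in both HU comparisons (0.71 and 0.95) and Csn1s1 downwards in both genotype comparisons (-0.94 and -0.77).

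The tag pools show how far HR- luminal cells of the same library differed. Tags are numbered as in the matrices, the same number in different libraries is not known to be the same source, and the pools are therefore not replicates of a condition. Lalba was at 384, 201, 339 and 363 CPM in the pools of tags 1 to 4 of wild-type control and at 815, 401, 554 and 242 CPM in wild-type HU. It was at 409, 85.8, 310.0 and 576 CPM in Brca2mut/WT control and at 738, 47.2, 876 and 223 CPM in Brca2mut/WT HU. All 4 sets overlapped, and within a library the highest pool was 1.91, 3.36, 6.71 and 18.5 times the lowest.

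Csn1s1 spread more widely still. Its pools were at 1996, 218, 2259.8 and 356 CPM in wild-type control, 1929, 819, 1894 and 269.9 CPM in wild-type HU, 1244, 38.2, 1508 and 324 CPM in Brca2mut/WT control and 1064, 23.2, 1184 and 186 CPM in Brca2mut/WT HU. In each library tags 1 and 3 were the highest pools, and the highest pool exceeded the lowest 10.4-, 7.15-, 39.5- and 51.1-fold, far beyond the difference between genotypes. In both Brca2mut/WT libraries the tag 2 pool had the lowest Lalba and Csn1s1, and 3519.99 and 3836 CPM of Wfdc18, the highest Wfdc18 of those libraries. The tag 2 pool of wild-type control had the highest Wfdc18 of all, 7149.98 CPM, with the lowest Csn1s1 of its library. Csn3 ranged from 5174 to 24206 CPM and Mfge8 from 1664 to 5620 CPM over the 16 pools. For Csn3 and Mfge8, too, tags 1 and 3 were the highest pools in each library. Lalba and Wfdc18 did not keep this order in every library.

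**Figure D4:**
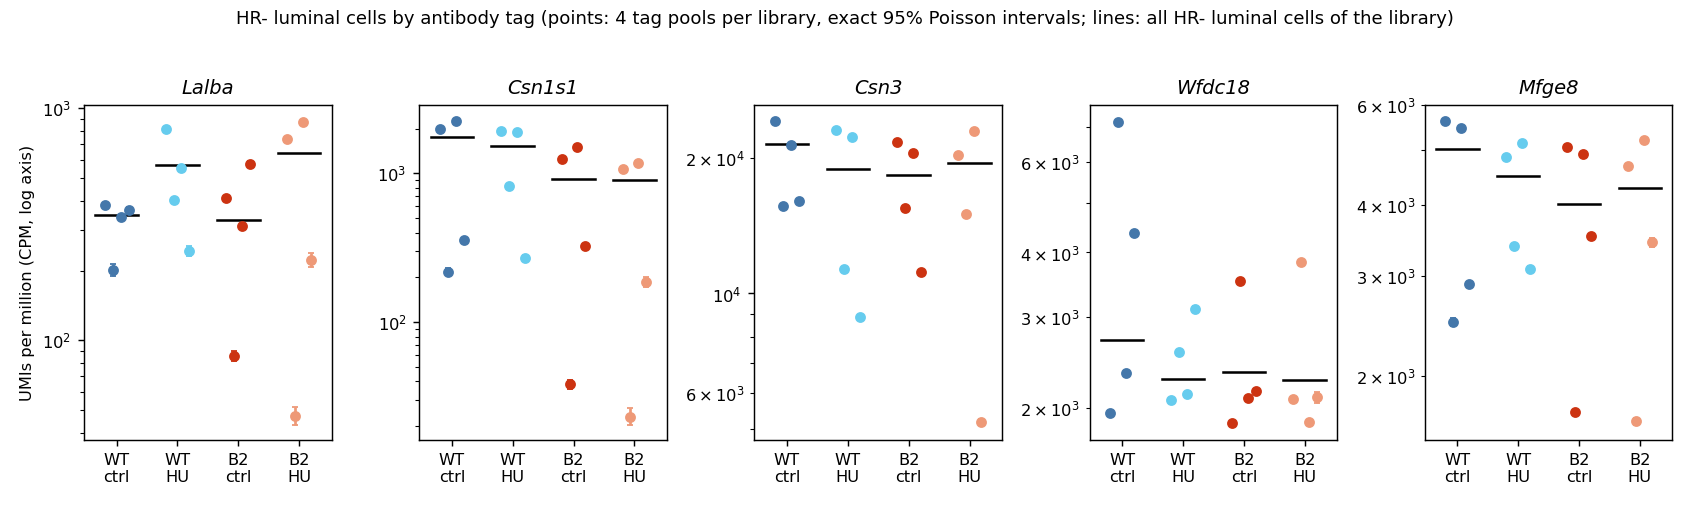
CPM on a log axis of 5 members in HR- luminal cells of the 16 tag pools, 4 for each library, with a line for the sum over all cells of the library. Pools of 1 library differ by up to 51.1-fold for Csn1s1 and 18.5-fold for Lalba, and the pools of all 4 libraries overlap for each gene.

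The differences between libraries moved with these pools. Taken as the unweighted mean of 4 pools, Lalba was at 322, 503, 345 and 471 CPM, and the HU difference in Brca2mut/WT was 0.45, no longer past 1.5-fold. In wild type it was 0.44 without the tag 1 pool of the HU library, also under 1.5-fold. For Csn1s1 the unweighted means were 1207, 1228, 779 and 614 CPM. Its difference between genotypes stayed past 1.5-fold in control libraries in every alternative run (-1.40 to -0.62), and with HU it was -0.55 without the tag 2 pool of Brca2mut/WT HU and -0.53 without the tag 3 pool of wild-type HU. Wfdc18, within 1.5-fold as summed, passed it in unweighted means, at -0.68 with HU in wild type and -0.71 between genotypes in control. The part of the pools in the differences between conditions was not tested.

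Single HR- luminal cells were compared after each was thinned at random to 10000 UMIs, which left 3985, 3221, 3171 and 2405 cells and left out 224, 236, 421 and 345 shallower ones. Lalba was found in 38.5% of cells in wild-type control (exact binomial 95% interval 37.0 to 40.0), 43.7% in wild-type HU (41.9 to 45.4), 33.4% in Brca2mut/WT control and 43.7% in Brca2mut/WT HU. In thinned basal cells the share was 10.9, 10.3, 3.96 and 6.18%, and in HR+ luminal cells 13.8, 6.15, 4.50 and 6.98%. Before thinning the shares over all HR- luminal cells, shallower ones included, were 49.3, 53.0, 41.2 and 51.7%. In the cells kept for thinning, median depths beforehand were 25322 to 29033 UMIs for HR- luminal and 21343 to 24847 for basal cells. Thinned to 10000 UMIs, most HR- luminal cells thus had no Lalba UMI, and the share with one was above that of the other classes in each library.

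Csn1s1 was found in 84.6, 78.2, 62.0 and 63.4% of thinned HR- luminal cells, against 48.2, 35.2, 27.7 and 25.1% of basal and 47.4, 33.1, 18.0 and 14.0% of HR+ luminal cells. Csn3 was found in nearly every cell of every class, so its share separates nothing. Wfdc18 was found in 97.8, 93.7, 95.6 and 94.8% of HR- luminal and 77.2 to 93.3% of basal cells. Csn1s2a was found in 1.66, 3.04, 0.915 and 1.95% of HR- luminal cells and in at most 0.360% of basal cells. The basal shares rest on 1, 1, 1 and 0 cells. In Brca2mut/WT control the exact interval of the basal share, 0.0091 to 1.99%, covered the HR- luminal share, so no difference is read there. Csn2 was found in 0.221 to 0.552% of HR- luminal cells, which overlaps the 0 to 0.719% of basal cells, so no difference is read from it. Wap was found in 0.176% of HR- luminal cells of wild-type control and in 0 of 595 basal cells, which allows a share of up to 0.504%.

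The spread over cells separated the members. It was taken over all HR- luminal cells of a library, so differences between its tag pools are part of it. How much of the spread came from the pools was not tested. The 10% of HR- luminal cells with the most Lalba held 76.6, 72.3, 78.1 and 72.6% of its UMIs, and the median cell had 0 CPM while the cell at the 90th percentile had 900, 1700, 900 and 1900 CPM. For Csn1s1 the top 10% held 48.8, 51.4, 63.6 and 61.8%, and the median cell was at 500, 400, 100 and 100 CPM. For Wfdc18 the top 10% held 46.2, 49.1, 43.3 and 45.3%, near Csn1s1 in the wild-type libraries and below it in the Brca2mut/WT libraries. The median cell for Wfdc18 was at 1200, 900, 1200 and 1000 CPM, above that for Csn1s1 in each library. Csn3 and Mfge8 were spread over the whole class, with 18.7 to 19.6% and 21.1 to 24.9% of UMIs in the top 10% and medians of 17900 to 21100 and 3400 to 4800 CPM. The HU libraries with more Lalba in sum thus had a higher 90th percentile, while the median cell stayed at 0 in each. The Fano factor, the variance over the mean of the thinned counts, was 25.8 to 36.5 for Lalba, 37.9 to 42.6 for Csn1s1, 48.7 to 56.3 for Csn3, 44.6 to 63.4 for Wfdc18 and 16.1 to 20.2 for Mfge8, and it grows with the mean, so it is given for each gene across libraries and not between genes.

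**Figure D5:**
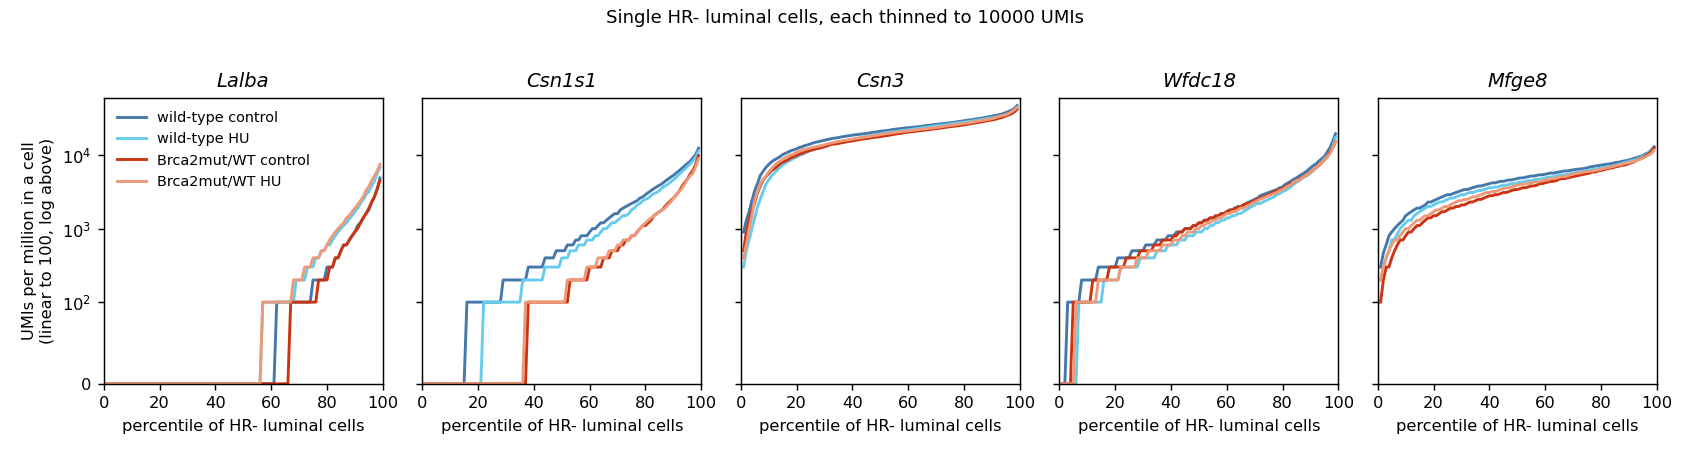
CPM of Lalba, Csn1s1, Csn3, Wfdc18 and Mfge8 in single HR- luminal cells thinned to 10000 UMIs, ordered from lowest to highest and plotted against the percentile of cells, 1 line per library, on an axis that is linear up to 100 CPM and logarithmic above. Lalba stays at 0 past the median cell in all 4 libraries and reaches 900 to 1900 CPM at the 90th percentile, whereas Csn3 is above 4000 CPM from the 10th percentile on.

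Across cells most correlations between members were low in absolute terms. Correlations were taken over 12280 thinned HR- luminal cells with 1 tag, centred within each of 16 pools, and are given as descriptions, since the cells of a pool share library, depth and ambient RNA. The highest was that of Csn3 with Mfge8, r = 0.43, and 0.32 to 0.58 within single pools. Lalba with Csn3 gave 0.20, Csn3 with Wfdc18 0.20, Csn1s1 with Mfge8 0.19 and Csn1s1 with Csn3 0.16, all of them above 0 in at least 15 of 16 pools. Across 5321 genes of at least 20 CPM, the 95th percentile of r with any of these members was at most 0.117, below these values. Lalba and Csn1s1, the pair with the most uneven spread, gave 0.07, above 0 in 14 of 16 pools, and Lalba with Wfdc18 gave -0.05, below 0 in 16 of 16. The 95th percentile over those genes was 0.0649 with Lalba and 0.0295 with Csn1s1. The 5th percentile was -0.06 with Lalba and -0.0415 with Wfdc18. The correlation of Lalba with Csn1s1 was thus small but above that of most genes, and that of Lalba with Wfdc18 was not positive.

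Among 5321 genes with at least 20 CPM, the genes most like each member over the same cells were as follows. For Lalba they were Dbi, which binds acyl-CoA, with r = 0.23, the folate receptor gene Folr1 with 0.23 and Aldoc, a glycolytic aldolase, with 0.22. For Csn1s1 they were Fth1, the ferritin heavy chain, with 0.23, Mfge8 with 0.19 and Trf with 0.18. For Csn3 they were Lcn2, encoding a secreted lipocalin that binds iron carriers of bacteria, with 0.59, 4931406C07Rik with 0.49 and Clca3a2 with 0.44. Mfge8 followed Lcn2 (0.53), Trf (0.49) and Fth1 (0.45), and Wfdc18 followed Lcn2 (0.27), Pglyrp1, a peptidoglycan recognition protein (0.24), and Csn3 (0.20). Lcn2 thus led the lists of 3 members, and it was abundant in these cells, with a mean of 33867 CPM. How far the level of a gene sets its correlations was not tested. The lists of Lalba and Csn3 shared no gene, though these members themselves gave r = 0.20. For Csn1s2a, Csn2 and Wap no gene was above 0.07, which in counts this sparse is no finding.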

How the data were processed

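Per the labels and the study's methods, the authors prepared 10x Chromium libraries, aligned reads to mm10 with Cell Ranger 6.0.2 (the deposited matrix headers name 6.1.1) and deposited UMI counts, whole numbers without normalization, per gene and cell, together with the counts of 4 antibody tags, which were left out of gene totals. The 8 genes, the gene lists and the tests were chosen with earlier results of these data known. Barcodes were kept where 1000 to 6000 genes were detected and mitochondrial genes took under 5% of UMIs, as in the study's methods, which left 17360 of 33268 barcodes. The series' description gives a cell count of 34200. No doublet caller was run. Of the cells kept, 15452 carried 1 tag (over 3 times background), 535 carried 2 or more and 1373 none, and keeping only cells with 1 tag was an alternative.

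UMIs were summed per library and class and tested with edgeR 4.0.16 (R 4.3.3; glmQLFit, glmQLFTest, TMM, filterByExpr, library as a block, Benjamini-Hochberg over all genes); a call needed adjusted p under 0.05 and 2-fold. DESeq2 1.42.0 was an alternative. The library block takes the place of a replicate block, because the classes of a library share its droplets. Conditions had 1 library each and were compared by CPM with exact Poisson 95% intervals, which cover counting error only. Cells were thinned with a fixed seed (Python 3.11.15, numpy 2.4.6, scipy 1.17.1). The edgeR fit and the ratios between conditions were tested on simulated counts, and the motif search on short made-up sequences. The reading, filtering and classing of cells had no such test. Genes beyond the 8 were named by a rule, up to 4 per list: the 2 called genes with the largest positive and the 2 with the largest negative difference between HR- luminal and basal cells. For each of the 8 genes, the 3 with the highest correlation over cells were named too. Gene positions come from GENCODE M21 and sequences from RefSeq.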

Additional observations from a re-analysis of the deposited data

Results flagged for a closer look

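In the sums per library, Csn3 and Mfge8 moved in opposite directions with HU in the 2 genotypes. This difference between groups was not tested, since each condition is 1 library. Csn3 differed by -0.19 on the log2 scale in wild type and by 0.0919 in Brca2mut/WT, and Mfge8 by -0.16 and 0.0966. Over all alternatives the Brca2mut/WT difference ranged from -0.12 to 0.21 for Csn3 and from -0.11 to 0.27 for Mfge8, so its direction was not kept. In wild type the ranges were -0.36 to -0.048 for Csn3 and -0.30 to 0.0015 for Mfge8. All 4 differences between the sums are under 1.5-fold, and within a library the highest tag pool exceeded the lowest by 1.55- to 4.44-fold for Csn3 and by 1.67- to 3.13-fold for Mfge8.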

How the results depend on the processing

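Of the results that answer a comparison, 106 values under other settings stayed near the main value and 10 moved. A count was near if within 1.5-fold of the main count, so 5 members called in place of 6 was near. The share of UMIs in the top 10% of cells was near if it changed by less than its standard deviation over libraries. The count of 6 members called was 5 to 7 against basal cells. Against HR+ luminal cells it was 5 in 9 of the alternatives, where Csn1s2a lost its call. Single differences shrank under a looser cell filter (no upper limit on genes, mitochondrial UMIs to 10%). There Lalba was at 3.32 against basal and 2.60 against HR+ luminal cells, and Csn1s2a against HR+ luminal cells turned to -0.89. Over all alternatives the lowest differences from basal cells were 2.69 for Csn3, 2.51 for Csn1s1, 1.95 for Mfge8 and 1.18 for Wfdc18. From HR+ luminal cells the lowest were 1.70, 2.39, 1.53 and 1.38 in the same order. In cycling cells the count of 1 member became 6 with no fold requirement, 2 with cycling taken from 600 CPM (Lalba at -1.02 with Csn2) and 0 with no replicate block, and Lalba passed 2-fold without the wild-type HU library (-1.10). For HU in wild type the count of 1 became 2 in unweighted pool means and ranged from 0 to 1 with each tag pool left out. For HU in Brca2mut/WT it became 0 in unweighted means. Between genotypes it became 2 in control (unweighted means), and ranged from 0 to 1 with each pool left out in HU. Over all alternatives Lalba with HU ranged from 0.44 to 0.82 in wild type and from 0.45 to 1.16 in Brca2mut/WT, and Csn1s1 between genotypes from -1.40 to -0.62 and from -1.05 to -0.53. The share of Csn3 UMIs in the top 10% of cells was 20.1% as the median over libraries at 5000 UMIs. The causes were not tested, beyond the smaller samples that some settings use. Depth limits Csn1s2a, Csn2 and Wap, and 1 library per condition limits every comparison of conditions.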
